A study of Mus musculus with 6 samples.

Results

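The collagen gene family was taken as the protein-coding genes whose GENCODE mouse symbol is Col, a number, a and a number, such as Col1a1. The rule found 44 genes, all of them among the 21666 genes of the deposited count matrix. The matrix holds 6 RNA-seq libraries of cultured satellite cells, the stem cells of skeletal muscle, taken after 2 days of differentiation. In 3 of them the cells came from wild-type (WT) mice and in the other 3 from mice with a knockout (KO) of the long noncoding RNA lncMREF. The sources used here do not give strain, age, sex or how the allele was made. They also leave unsaid whether each replicate is an animal or culture of its own, so a p-value measures library-to-library spread only, and that spread may be technical. No identifier for lncMREF was given, and its own level was not examined.

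A collagen is a trimer of alpha chains, each coded by its own gene, wound into a triple helix through a long run of repeats that begin with glycine. Fibrillar collagens (types I, II, III, V, XI, XXIV and XXVII) form the tension-bearing fibrils of connective tissue. Collagen IV forms the meshwork of basement membranes, the sheets that wrap every muscle fibre, and collagen VI forms beaded microfibrils that join this sheet to the fibrils around it. Fibril-associated collagens sit on the surface of fibrils, and a last group of anchoring, network-forming, transmembrane and basement-membrane-zone collagens is called other here. Muscle fibres, fibroblasts, tendon, vessel and nerve cells each make a part of this set. The 44 genes divided into 11 fibrillar, 6 basement membrane (collagen IV), 6 collagen VI, 9 fibril-associated and 12 other genes.

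Library totals ran from 17919826 to 28430678 counts. Levels are CPM, counts normalised to the library size that edgeR's TMM method scales, as mean ± SD over 3 libraries. The labelled cell type was borne out by muscle lineage genes in both genotypes: the muscle intermediate filament gene Des stood at 3099 ± 42.6 CPM in WT and 574 ± 15.8 in KO, the myoblast fusion gene Mymk at 896 ± 17.3 and 197 ± 6.88, and the satellite cell factor Pax7 at 10.5 ± 0.782 and 15.1 ± 0.751. Over 10 myogenic markers, 8 were called lower in KO by more than 2-fold. In bulk RNA, fewer cells of a type and less RNA per cell cannot be told apart. Of all 15518 genes tested, 66.7% were called different between genotypes at an adjusted p under 0.05 by edgeR's quasi-likelihood test, 33.7% higher and 33.0% lower in KO. Calls with a change of over 2-fold made up 17.9% of genes, 8.56% higher and 9.38% lower. All values come from the count matrix. The deposited per-library tables disagree with it in both directions. Of the 44 collagen genes, 25 had a mean count there under 0.8 times that in the matrix, 15 one over 1.25 times and 4 one in between. Over the 6 libraries Col1a1 averaged 0.333 counts there against 159085 in the matrix, and Col4a1 7.33 against 78254. Col17a1 averaged 862 against 10.8 and Col13a1 2710 against 155, with the per-library tables higher, and Col1a2 was close at 126640 against 120309. The cause was not tested, and no result below was checked against those tables. With 66.7% of all genes tested called, a call by itself is common in these data, and the size of each change is given throughout.

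Promoter windows are shown for 2 groups of neighbouring members that changed the same way. That shared direction was part of the choice and is not a result. RefSeq (GRCm38.p6) gave a window from 250 bases before to 50 bases after the start site for 35 of the 44 genes. Col4a1 and Col4a2, which code for the chains of the main collagen IV trimer, lie head to head on chromosome 8. Their gene models shared 22 bases at the starts, and their windows shared the 78 bases chr8:11312777-11312854, which are shown in capitals on both strands. Col3a1 and Col5a2 are also neighbours and both rose, but Col5a2 was not among the matched genes and neither is shown.

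Col4a1 (chr8:11312777-11313076, minus strand): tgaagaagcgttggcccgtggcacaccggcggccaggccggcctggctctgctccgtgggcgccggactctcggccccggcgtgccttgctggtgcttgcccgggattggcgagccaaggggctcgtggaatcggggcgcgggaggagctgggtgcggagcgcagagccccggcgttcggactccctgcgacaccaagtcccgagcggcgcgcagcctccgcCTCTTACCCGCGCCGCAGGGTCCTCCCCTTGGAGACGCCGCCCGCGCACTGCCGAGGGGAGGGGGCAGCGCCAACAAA
Col4a2 (chr8:11312555-11312854, plus strand): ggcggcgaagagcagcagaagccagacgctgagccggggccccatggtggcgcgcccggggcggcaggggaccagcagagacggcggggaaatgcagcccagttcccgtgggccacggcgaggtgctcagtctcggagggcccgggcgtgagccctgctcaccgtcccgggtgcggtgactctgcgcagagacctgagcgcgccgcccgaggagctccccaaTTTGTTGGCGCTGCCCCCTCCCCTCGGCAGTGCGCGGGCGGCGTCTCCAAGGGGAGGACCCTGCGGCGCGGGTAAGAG

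The capitals of the Col4a2 line are the reverse complement of those of the Col4a1 line. Both genes fell in KO, as described with the basement membrane class. Col6a1, Col6a2 and Col18a1 lie on the minus strand of chromosome 10 within 1 stretch, with 85.2 kb between Col6a1 and Col6a2 and 326 kb between Col6a1 and Col18a1, and all 3 rose by over 2-fold. Their windows are shown with motif matches in capitals, read on both strands. The GC box was searched as the letters GGGCGG. The TATA box was searched as the letters TATAAA, which mark the start region of some genes. An E-box of the kind that muscle regulatory factors bind was searched as the letters CAGCTG. The remaining motif was the CCAAT box, searched by its name.

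Col6a1 (chr10:76725995-76726294, minus strand): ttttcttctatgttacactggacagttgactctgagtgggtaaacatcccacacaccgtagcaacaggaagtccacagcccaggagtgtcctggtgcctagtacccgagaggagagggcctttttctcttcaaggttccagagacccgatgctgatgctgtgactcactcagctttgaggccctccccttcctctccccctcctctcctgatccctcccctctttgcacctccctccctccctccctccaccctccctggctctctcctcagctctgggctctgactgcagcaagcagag
Col6a2 (chr10:76623581-76623880, minus strand): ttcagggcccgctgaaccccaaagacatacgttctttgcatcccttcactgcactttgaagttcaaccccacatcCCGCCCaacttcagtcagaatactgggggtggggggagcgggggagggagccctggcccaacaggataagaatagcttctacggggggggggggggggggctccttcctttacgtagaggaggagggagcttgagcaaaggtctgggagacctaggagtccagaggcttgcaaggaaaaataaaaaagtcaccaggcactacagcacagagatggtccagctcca
Col18a1 (chr10:77166481-77166780, minus strand): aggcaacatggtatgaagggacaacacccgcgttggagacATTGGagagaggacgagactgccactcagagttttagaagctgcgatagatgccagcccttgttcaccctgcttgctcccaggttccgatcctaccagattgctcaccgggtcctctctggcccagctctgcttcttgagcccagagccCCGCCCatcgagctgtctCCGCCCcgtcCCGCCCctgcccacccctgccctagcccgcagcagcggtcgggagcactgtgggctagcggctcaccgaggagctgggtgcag

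The Col6a1 window held none of these letters, the Col6a2 window 1 match (GC box) and the Col18a1 window 4. No motif searched contains another. Over the 35 windows of the family, 22 (62.9%) held a GC box, against 35.6% of all 32817 windows of the table. The family's windows were those nearest each annotated gene start, whereas the comparison took every distinct window. The start site used for Col25a1 lay 49344 bases from the annotated gene start and that for Col27a1 1408 bases. The GC content of the family's windows had a median of 60% against 52.7% over all windows. A CCAAT box was in 12 (34.3%) against 37.4%, a TATA box in 5 (14.3%) against 13.6% and the E-box in 7 (20%) against 16.3%. The GC box was in 9 of the 15 windows of genes called higher and in 9 of the 13 of genes called lower. These matches describe letters, not sites.

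Collagen RNA took a larger share of counts in KO. The 44 genes together held 2.90%, 2.94% and 2.90% of the counts in the 3 WT libraries, against 3.54%, 3.59% and 3.70% in the 3 KO libraries, and the genotypes did not overlap. Fibrillar genes held 2% ± 0.0174 in WT and 2.65% ± 0.0704 in KO (SD, n = 3 each). Collagen IV went the other way, from 0.643% ± 0.00699 to 0.492% ± 0.00732. Collagen VI went from 0.0773% ± 0.0016 to 0.171% ± 0.00201, fibril-associated genes from 0.041% ± 0.000688 to 0.0677% ± 0.00319 and the other genes from 0.152% ± 0.000665 to 0.228% ± 0.00123. These shares are of raw counts, with no scaling between libraries, and no test was made on them. With libraries scaled by their totals alone, the typical gene rose too. The median log2 fold change was then 0.19 over all genes and 0.35 over the 38 collagen genes tested.

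**Figure D1:**
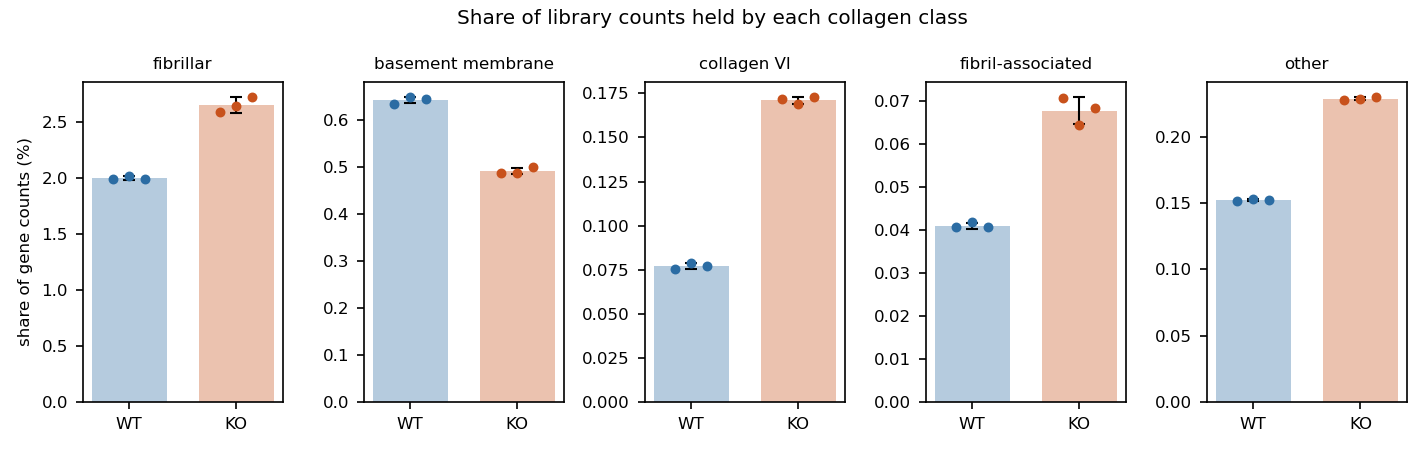
Share of each library's counts (%, linear axis from 0, a separate scale per panel) held by the genes of each collagen class. Bars are means of 3 libraries, error bars are SD and points are libraries. By summed share, collagen IV is the class that is lower in KO, at 0.492% against 0.643%. Collagen VI shows the greatest ratio of the 5, 2.21. In the other class 7 of 12 genes were called lower, while its most abundant gene, Col18a1, rose.

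Col1a1 led the family in every library and ranked 3 or 4 among all protein-coding genes by counts. Per kilobase of the longest annotated transcript, the WT order was Col1a1 (1127 ± 13.7 CPM per kb), Col1a2 (942 ± 5.81), Col4a1 (635 ± 8.16), Col5a2 (598 ± 9.51), Col3a1 (589 ± 3.62), Col4a2 (395 ± 6.05), Col5a1 (172 ± 4.30) and Col18a1 (121 ± 1.32). The WT ranges of Col5a2 and Col3a1 overlapped. In KO the order was Col1a1 (1272 ± 47.0), Col1a2 (1070.2 ± 28.6), Col3a1 (754 ± 21.8), Col5a2 (680.2 ± 16.8), Col4a1 (418 ± 7.93), Col4a2 (283 ± 2.65), Col18a1 (274 ± 2.76) and Col5a1 (255 ± 10.7). By this length Col4a1 thus stood 3 in WT and 5 in KO, below both Col3a1 and Col5a2. Col4a2 and Col18a1, 6 and 8 in WT, were close to each other in KO. The order depends on the length taken. Per kb of all annotated exonic bases, Col4a1 (563) stood above Col5a2 (413) and Col1a2 (406) in WT. In KO it (370) stood below both (470 and 461).

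Of the 44 genes, 38 passed the low-count filter. Of these, 21 were called higher in KO, 14 were called lower and 3 were not called, and 8 in each direction changed by over 2-fold. The called share was 92.1% beside 66.7% of all genes, and the share over 2-fold 42.1% beside 17.9%. Among the 23 members with at least 20 CPM in either genotype, 26.1% changed by over 2-fold, beside 10.9% of all genes at that level. Among the 15 below it the shares were 66.7% and 25.9%. The median log2 fold change over the 38 was 0.18, against 0.02 over all genes, and the median absolute change 0.76 against 0.38. In 35 of the 38 the libraries of the genotypes did not overlap, which held for 69.4% of all genes tested. The 6 genes that did not pass were Col4a3, Col6a4, Col6a5, Col9a1, Col9a2 and Col22a1, with 11 to 38 counts each over the 6 libraries. Only Col17a1 among the called members passed the filter through its KO libraries alone. No member shared more than 6.07% of its exonic bases with another gene.

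**Figure D2:**
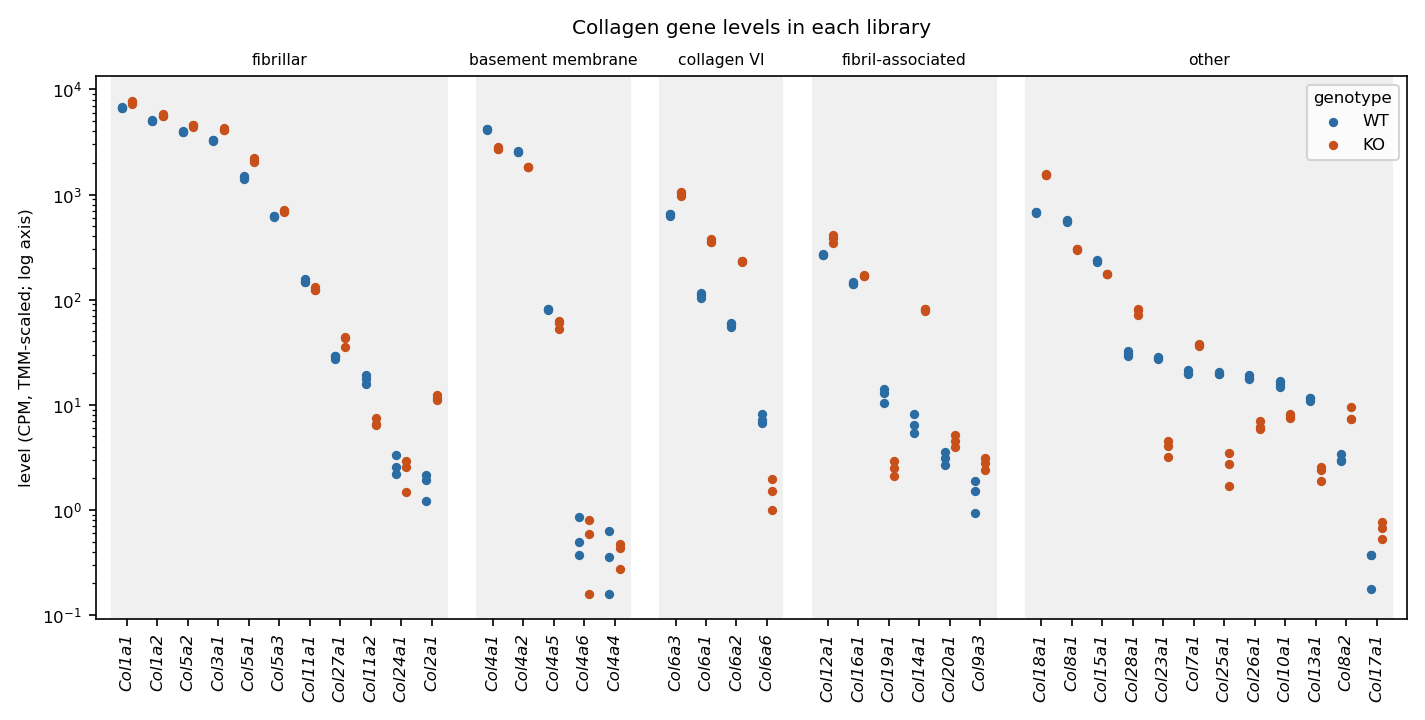
Level of each of the 38 tested collagen genes in every library (CPM, logarithmic axis), grouped by class and ordered by WT level. Each point is a library, WT to the left and KO to the right. The leading fibrillar genes are only slightly higher in KO, as for Col1a1 at 6685 against 7544 CPM, whereas the genotypes lie far apart for low genes such as Col23a1 and Col14a1.

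The fibrillar class was led by small rises of abundant genes. Of its 11 tested genes, 8 were higher, 2 were lower and Col24a1 was not called. Col1a1, the alpha-1 chain of collagen I (ENSMUSG00000001506, chr11:94936224-94953042), stood at 6622, 6777 and 6658 CPM in the WT libraries and 7239.9, 7604 and 7788 in the KO libraries. All KO values lay above all WT values, and the log2 fold change was 0.17 (SE 0.04, adjusted p 0.000164). Col1a2, its partner chain (ENSMUSG00000029661, chr6:4504814-4541544), went from 5011, 5073 and 5038 to 5627, 5644 and 5899.6 (0.18, SE 0.04, adjusted p 7.13e-05). Col3a1, the single chain of the homotrimeric collagen III of elastic tissues (ENSMUSG00000026043, chr1:45311538-45349706), went from 3295, 3278 and 3255 to 4136, 4116 and 4336 (0.36, SE 0.04, adjusted p 4.43e-10). Again no KO library fell within the WT range.

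Collagen V, which is built into collagen I fibrils and sets their width, rose through each of its chains but not evenly. Col5a1 (ENSMUSG00000026837, chr2:27886425-28039514) stood at 1421, 1485 and 1425 CPM in WT and at 2152, 2047 and 2226 in KO, a rise of 0.57 (SE 0.04, adjusted p 1.41e-14). Col5a2 (ENSMUSG00000026042, chr1:45374321-45503282), which lies tail to tail with Col3a1 at a distance of 24.6 kb, stood at 3964, 4027 and 3901 and at 4379.7, 4549.8 and 4589 (0.18, SE 0.04). Col5a3 went from 622, 625 and 616 to 689, 710.0 and 704 (0.18, SE 0.04). The Col5a1 rise was thus 1.48-fold where the other two chains rose 1.14-fold and 1.13-fold.

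The less abundant fibrillar genes went both ways. Col2a1, the cartilage collagen (chr15:97975602-98004695), stood at 1.20, 2.16 and 1.94 CPM in WT and at 12.5, 11.5 and 11.2 in KO, a 6.65-fold rise (2.73, SE 0.16, adjusted p 2.53e-17). It stayed a minor gene in both genotypes. Of 8 cartilage markers listed, 3 were tested and none of these was called higher. The chondrocyte factor Sox9 fell (-0.56, SE 0.09, from 17.8 ± 0.674 to 12.2 ± 0.758 CPM). Hapln1 and Chad, too low to test, stood at 0.122 ± 0.0937 and 0.132 ± 0.0375 CPM in WT and at 0.379 ± 0.157 and 0.397 ± 0.135 in KO, with every KO library above every WT library. The summed level of the list, most of it from Sox9, was 20.6 to 22.2 CPM in WT and 15.5 to 17.0 in KO. The part of such cells in the Col2a1 value was not tested. Col27a1, another cartilage-rich fibrillar collagen, went from 29.3, 27.0 and 29.2 to 43.3, 43.9 and 35.5 (0.52, SE 0.07). Collagen XI, a minor fibril component best known from cartilage, fell. Col11a2 (chr17:34039437-34066685) went from 19.1, 15.9 and 17.5 to 6.39, 7.57 and 6.59, a 2.55-fold fall (-1.35, SE 0.10, adjusted p 1.03e-13). Col11a1 went from 149, 159 and 147 to 124, 131 and 122 (-0.27, SE 0.05, adjusted p 4.34e-06). That smaller fall was not called with library size as the only scaling (-0.09, adjusted p 0.0617), which moves all genes together. Relative to the median of all genes, which cancels a common shift by construction, Col11a1 stood at -0.29 under both scalings. Adjusted p-values between 9.34e-09 and 0.0617 were obtained across alternatives. Col24a1 stood at 2.70 ± 0.567 and 2.30 ± 0.741 CPM (-0.23, SE 0.23, adjusted p 0.385).

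The fibrillar rises are small enough for scaling to matter. When libraries were scaled by their totals alone, the all-gene median shifted by 0.17, and 66.1% of all calls were higher in place of 50.5%. Col1a1 was then at 0.35 in place of 0.17, and relative to the median of all genes it stood at 0.15 under both scalings. Col1a2 and Col5a2 stood at 0.16 and Col5a3 at 0.15 relative to that median, also under both. Subtracting the median removes by construction a shift that all genes share, so the equal values cannot tell which scaling is right. Fibroblast and fibro-adipogenic markers, from cells that make much fibrillar collagen in muscle, went both ways. Of 13 tested of 15, 5 were higher, 4 were lower and none changed by over 2-fold. Beside them, 33.7% of all genes tested were called higher, 33.0% were called lower and 17.9% were called with a change over 2-fold. The summed level of the list was 2021 to 2079 CPM in WT and 2128 to 2163 in KO. Its highest gene in both genotypes was Gsn, at 579 ± 11.0 CPM in WT and 702 ± 32.2 in KO, so the sum leans on that gene. Smoc2 (0.45, SE 0.04) and Pdgfra (0.38, SE 0.05) rose, and Dcn (-0.59, SE 0.04) and Ly6a (-0.45, SE 0.09) fell. Clec3b of that list had no count in WT. The part of these cells in the collagen values was not tested.

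The basement membrane genes fell. Of the 6 genes, 5 were tested, 3 were lower, none was higher and 2 were not called. Col4a1 (ENSMUSG00000031502, chr8:11198423-11312826) stood at 4139.8, 4228 and 4238 CPM in WT and at 2739, 2730.2 and 2825 in KO, a 1.52-fold fall (-0.60, SE 0.04, adjusted p 4.60e-16). Col4a2 (ENSMUSG00000031503, chr8:11312805-11449287), whose start is the one printed above beside that of Col4a1, went from 2524, 2594 and 2529 to 1810.3, 1817 and 1843, a 1.4-fold fall (-0.48, SE 0.04, adjusted p 2.27e-13). The genotypes were far apart for both. Col4a5, a chain of a collagen IV trimer better known from kidney (chrX:141475385-141689234), went from 81.0, 79.4 and 80.9 to 59.4, 52.7 and 62.0 (-0.47, SE 0.06, adjusted p 3.47e-09).

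The other collagen IV genes were nearly silent. Col4a6, head to head with Col4a5 at 1308 bases, had 3 to 23 counts per library (-0.14, SE 0.44, adjusted p 0.793), and Col4a4 had 3 to 17 (-0.04, SE 0.48, adjusted p 0.943). Their sign changed with the scaling or with a left-out library. Col4a3, 71 bases from Col4a4, had 4 to 10 counts and was not tested. Markers of endothelial cells, which make collagen IV for vessel walls, fell in the same libraries: all 10 were lower, 9 by over 2-fold, and their summed level was 336 to 343 CPM in WT and 83.2 to 88.6 in KO. Cdh5 fell by 1.82 on the log2 scale and Pecam1 by 3.18. The part of these cells in the collagen IV values was not tested.

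Of the 6 collagen VI genes 4 were tested, of which 3 rose, by unequal amounts, and Col6a6 fell. Col6a2 (ENSMUSG00000020241, chr10:76595762-76623630) stood at 55.4, 59.7 and 58.9 CPM in WT and at 232, 234 and 227 in KO, a 3.99-fold rise (1.99, SE 0.05, adjusted p 5.93e-29). Col6a1 (ENSMUSG00000001119, chr10:76708792-76726168) went from 111, 116 and 104 to 355, 379 and 351, a 3.28-fold rise (1.71, SE 0.05, adjusted p 7.62e-27). These chains pair with that of Col6a3 in the usual trimer. Col6a3 (ENSMUSG00000048126, chr1:90765923-90843971) rose less, 1.58-fold, from 629, 656 and 649 to 1034, 974 and 1049.5 (0.66, SE 0.04, adjusted p 3.00e-16). Col6a6, a gene for an alternative to the Col6a3 chain (chr9:105687809-105828160), fell 4.98-fold, from 8.19, 6.63 and 7.17 to 0.996, 1.51 and 1.95 (-2.32, SE 0.19, adjusted p 3.93e-13). Its neighbours Col6a4 and Col6a5 had 0 to 10 counts per library and were not tested.

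**Figure D3:**
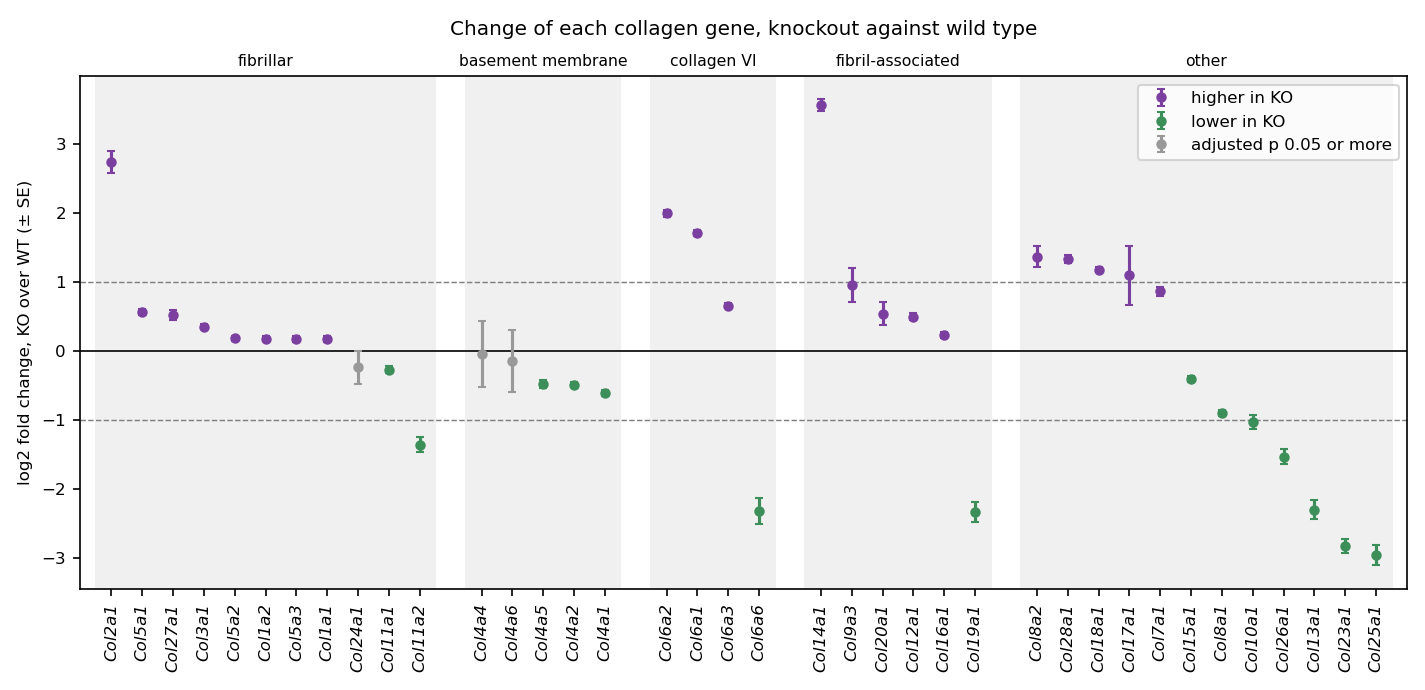
Log2 fold change of each tested collagen gene, KO over WT, with SE as error bars, grouped by class. Colour gives the call by edgeR's quasi-likelihood test at an adjusted p under 0.05 and dashed lines mark a 2-fold change. Changes ran from -2.96 (Col25a1) to 3.56 (Col14a1), and the 3 called collagen IV genes lie on the lower side.

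Of the 9 fibril-associated genes 6 were tested, of which 5 were higher and 1 was lower. Col14a1 (ENSMUSG00000022371, chr15:55307750-55520803), whose product coats collagen fibrils in tendon and skin, had the largest change of the family. It stood at 6.45, 5.42 and 8.25 CPM in WT and at 78.7, 80.6 and 81.9 in KO, an 11.8-fold rise (3.56, SE 0.09, adjusted p 6.82e-23). Col12a1, a related chain found in tendon and in the matrix around muscle fibres (chr9:79598991-79718831), was more abundant and rose less, from 267, 275 and 265 to 409.5, 348 and 382 (0.50, SE 0.05, adjusted p 1.59e-10). Col16a1 went from 142, 147 and 140.2 to 168, 167 and 171 (0.24, SE 0.04, adjusted p 9.04e-06). Col20a1 rose by 0.54 (SE 0.17, adjusted p 0.00562) to 4.53 ± 0.564 CPM and Col9a3 by 0.96 (SE 0.24, adjusted p 0.000777) to 2.76 ± 0.378.

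Tendon markers did not move one way beside Col14a1 and Col12a1. Of 6 tested, Thbs4 (4.31, SE 0.06), Tnmd (3.07, SE 0.23) and 2 more rose, while the tendon transcription factor Scx (-1.60, SE 0.05) and Cilp2 (-1.13, SE 0.23) fell. The summed level of the list was 166 to 170.4 CPM in WT and 280.3 to 289.6 in KO. Most of the WT sum came from Scx (141 ± 2.87 CPM, against 46.3 ± 1.09 in KO). Most of the KO sum came from Thbs4 (209 ± 6.56 CPM, against 10.5 ± 0.836 in WT). The part of tendon cells in the collagen values was not tested. Col19a1, a collagen of basement membrane zones that differentiating muscle cells express (chr1:24261890-24587472), was the member of the class that fell, from 10.5, 12.9 and 14.1 to 2.90, 2.11 and 2.48 CPM, a 5.03-fold fall (-2.33, SE 0.15, adjusted p 3.30e-16). Col22a1, known from the myotendinous junction, had 0 to 6 counts per library and was not tested, as were Col9a1 and Col9a2.

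Of the 4 transmembrane collagens, 3 fell by over 2-fold and Col17a1 was called higher. Col25a1, which muscle cells present to ingrowing motor axons (chr3:130131501-130599877), stood at 19.5, 19.4 and 20.6 CPM in WT and at 2.72, 1.67 and 3.48 in KO, a 7.76-fold fall (-2.96, SE 0.15, adjusted p 2.36e-15). Col23a1 (chr11:51289920-51583918) went from 28.7, 27.4 and 27.8 to 4.53, 4.06 and 3.21, a 7.04-fold fall (-2.82, SE 0.10, adjusted p 6.39e-23). Col13a1, a collagen of the neuromuscular junction (chr10:61838236-61979108), went from 10.8, 11.5 and 11.7 to 2.58, 2.39 and 1.90, a 4.91-fold fall (-2.30, SE 0.14, adjusted p 1.79e-16). For each of the 3, every KO library lay far below every WT library. The median log2 fold change of the myogenic markers was -1.95, with Myh3 lowest at -2.59 (SE 0.05). The collagen falls were not tested against those of the markers. The summed level of these markers was 16716 to 17365 CPM in WT and 3695 to 3961 in KO. Whether the falls follow the share of muscle cells was not tested. Col17a1, of hemidesmosomes, stood at 0.178, 0.369 and 0.373 CPM in WT and at 0.770, 0.677 and 0.527 in KO, on 4 to 17 counts per library, and was called higher (1.10, SE 0.43, adjusted p 0.0258). That call was lost with DESeq2 (adjusted p 0.0910) and without WT replicate 1 (0.119), KO replicate 1 (0.0862) or KO replicate 2 (0.0614), with a range across all alternatives of 0.00988 to 0.119.

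The collagens of the basement membrane zone split. Col18a1, whose heparan sulphate-bearing chain carries endostatin at its end (ENSMUSG00000001435, chr10:77052178-77166548), rose 2.27-fold, from 679.7, 668 and 681 CPM to 1522, 1528 and 1551 (1.18, SE 0.04, adjusted p 3.31e-24). It was the most abundant member to change by over 2-fold. Col15a1, its close relative in muscle and capillary basement membranes (chr4:47208161-47313167), fell from 232, 239 and 228 to 177, 175 and 176 (-0.41, SE 0.04, adjusted p 1.31e-10). Col7a1, the anchoring fibril collagen, rose from 21.5, 20.1 and 19.5 to 37.4, 37.6 and 36.3 (0.87, SE 0.07, adjusted p 1.80e-13). Each of the 3 had no overlap between genotypes.

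The 3 network-forming collagens also went both ways. Col8a1 (chr16:57624258-57754737), a short-chain collagen of vessel walls and corneal basement membrane, fell 1.86-fold, from 551, 568 and 556 CPM to 301, 295 and 303 (-0.90, SE 0.04, adjusted p 2.29e-20). Its partner Col8a2 rose 2.58-fold from 2.98, 2.90 and 3.40 to 7.38, 7.29 and 9.59 (1.37, SE 0.15, adjusted p 6.95e-10), and stayed far below Col8a1. Col10a1, a collagen of hypertrophic cartilage, fell from 14.6, 16.8 and 15.9 to 7.47, 7.60 and 8.22 (-1.02, SE 0.10), close to the 2-fold line. Col26a1, which belongs to none of these groups, fell from 17.8, 19.3 and 17.4 to 6.11, 5.89 and 7.01 (-1.53, SE 0.10, adjusted p 2.41e-15).

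Col28a1, a collagen of peripheral nerve (chr6:7997808-8192617), rose from 29.3, 32.4 and 30.6 CPM to 81.4, 80.3 and 70.7, a 2.53-fold rise (1.34, SE 0.06, adjusted p 6.35e-20). Schwann cell markers were higher in the same libraries. Of 10 tested, 8 rose, 6 of them by over 2-fold, and Erbb3 fell. Ngfr (2.00, SE 0.04) and Sox10 (1.96, SE 0.05) had the smallest p-values, and the summed level of the list was 516 to 519 CPM in WT and 1019.5 to 1041 in KO. Macrophage markers rose too, in 9 of 9 tested of 10 listed, from a summed 107 to 117 CPM to 348 to 360.3, with Lyz2 at 1.53 (SE 0.04) and Ctss at 2.44 (SE 0.10). Smooth muscle and pericyte markers were 2 higher and 5 lower of 9, with summed levels of 1787 to 1866 and 1659 to 1762 CPM. Of all genes tested, 33.7% were called higher and 33.0% lower, and 8.56% were higher by over 2-fold. Notch3 (0.34, SE 0.05) and Pdgfrb (0.13, SE 0.04) rose, and Abcc9 (-2.70, SE 0.07) and Rgs5 (-0.96, SE 0.05) fell. The part of these cells in the collagen values was not tested.

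Ratios between chains do not depend on how libraries are scaled, and they were formed for 10 pairs within each library from counts per kb of the longest transcript. The Col1a1 to Col1a2 ratio was 1.19, 1.20 and 1.19 in WT and 1.16, 1.22 and 1.19 in KO, so the genotypes overlapped and differed by less than the spread (log2 difference -0.01). The level of this ratio depends on the length taken: it was 2.51 in WT and 2.50 in KO with all annotated exonic bases. The Col4a1 to Col4a2 ratio went from 1.61 ± 0.0236 to 1.48 ± 0.0151, a small drop with no overlap. Within collagen V, Col5a1 to Col5a2 went from 0.282, 0.291 and 0.288 to 0.387, 0.355 and 0.382. Within collagen VI, Col6a1 to Col6a3 went from 0.436, 0.437 and 0.394 to 0.845, 0.959 and 0.825, a 2.07-fold change, and Col6a2 to Col6a3 from 0.185 ± 0.00332 to 0.467 ± 0.0249, a 2.52-fold change. Col6a1 to Col6a2 moved less and downward, from 2.28 ± 0.157 to 1.87 ± 0.0571. The Col8a2 to Col8a1 ratio rose 4.85-fold, from 0.00653 ± 0.000607 to 0.0318 ± 0.00483.

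Of the remaining 3 ratios, Col3a1 to Col1a1 went from 0.522 ± 0.00752 to 0.593 ± 0.016 and Col5a3 to Col5a1 from 0.591 ± 0.012 to 0.450 ± 0.0228, both with no overlap. Col4a5 to Col4a1 overlapped, at 0.0194 ± 0.00039 and 0.0212 ± 0.00148. A two-sided exact permutation test of the log2 ratios gave p = 0.1 for the 8 pairs without overlap, which is the smallest value that 3 libraries against 3 allow (adjusted p 0.125 over the 10). The exact test gave p = 0.7 for the collagen I chains and 0.2 for Col4a5 to Col4a1.

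**Figure D4:**
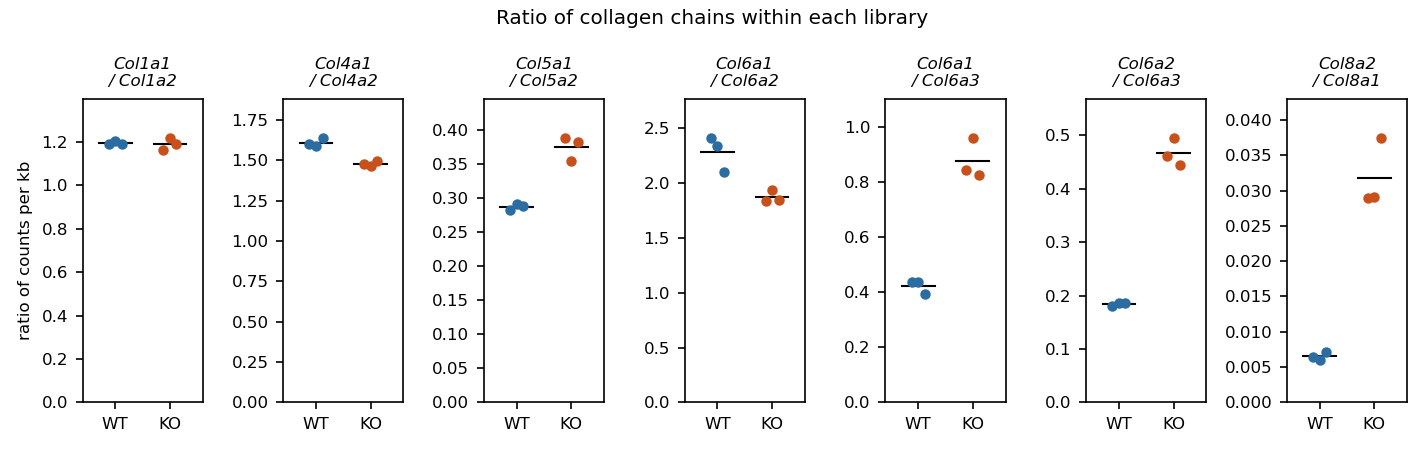
Ratio of counts per kb between collagen chains in each library for 7 of the 10 pairs (linear axes from 0, a separate scale per panel). Points are libraries and lines are means. The collagen I chains sit at 1.16 to 1.22 in both genotypes, while Col6a1 and Col6a2 relative to Col6a3 are 2.07-fold and 2.52-fold higher in KO.

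Genes that act on collagen chains were counted from 5 lists. Their counts stand beside 33.7% of all genes called higher and 33.0% called lower. Of 19 chain modification and folding genes, 6 were higher and 10 lower (median -0.10). The lysyl hydroxylase Plod2 fell from 332 ± 6.82 to 189 ± 5.49 CPM (-0.81, SE 0.04) and the prolyl hydroxylase subunit P4ha1 from 588 ± 0.886 to 401 ± 5.63 (-0.55, SE 0.04). The prolyl 3-hydroxylases P3h2 (1.25, SE 0.11) and P3h3 (0.48, SE 0.05) rose, and 28.4% of the exonic bases of P3h2 are shared with another gene. Of 9 export genes, 7 were lower and none was higher (median -0.20), among them Mia3, which loads procollagen into carriers (-0.60, SE 0.05), and the coat gene Sec23a (-0.45, SE 0.04).

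Of 13 tested genes for propeptide removal and crosslinking, 7 were lower and 4 higher (median -0.17). The crosslinking lysyl oxidases Lox, from 2915 ± 121 to 1933 ± 54.7 CPM (-0.59, SE 0.04), and Loxl3 (-0.77, SE 0.04) fell. The procollagen proteinase enhancer Pcolce2 (1.07, SE 0.13) and Pxdn, which crosslinks collagen IV (0.22, SE 0.04), rose. Of 12 collagen receptors tested, 5 were higher and 4 lower (median -0.01), near the shares of all genes, 33.7% and 33.0%. The receptors for fibrillar collagen Itga11 (1.43, SE 0.06, from 56.3 ± 2.67 to 152 ± 12.7 CPM) and Ddr2 (0.56, SE 0.04) rose, and Ddr1 (-0.39, SE 0.04) and Itgb1 (-0.29, SE 0.04) fell. Among collagen-cleaving enzymes 4 of 8 tested were higher and 2 lower (median 0.19), with Ctsk (0.78, SE 0.05) and Mmp14 (0.46, SE 0.04) up and Mmp9 (-0.31, SE 0.08) and Mmp3 (-0.26, SE 0.08) down. These medians stand beside 0.02 for all genes.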

How the data were processed

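Raw gene counts were deposited by the authors in a matrix of all 6 libraries and in 1 table per library. The submitters' processing notes name featureCounts 2.0.1, HISAT2 2.2.1 and build mm10. Annotation release, strand use and counting options are not stated there. All tests used the matrix. The per-library tables (5501088 to 9136354 counts) were only compared with it: of 27 collagen genes with a matrix mean of at least 200 counts, only 4 had a mean count there of 0.8 to 1.25 times that in the matrix and 2 were at 0, so those tables entered no test.

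Of the matrix genes, 21632 were matched by identifier to GENCODE M21 (mm10), which gave symbols, coordinates and lengths; overlaps of exons came from bedtools 2.31.1. Genes were filtered by filterByExpr (minimum count 10, total 15), scaled by TMM and tested with edgeR 4.0.16 in R 4.3.3 (quasi-likelihood F-test, genotype only, Benjamini-Hochberg over 15518 genes, threshold 0.05). SE is the fold change over the square root of F. Replicate libraries differed by more than sampling noise (mean chi-square per gene 3.18 to 5.11). DESeq2 1.42.0, other scalings, no filter, GC and length offsets, a replicate block and left-out libraries were alternatives.

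The members and lists were chosen with earlier results of these data known. Every member is accounted for; values per library are given at 20 CPM or more in either genotype or for a called change over 2-fold, and of other lists the 2 called genes of smallest p in each direction are named. Clec3b, Gsn, Hapln1, Chad and Myh3 are named from their lists after their values were seen.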

Additional observations from a re-analysis of the deposited data

How the results depend on the processing

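Over 12 alternatives, 33 of the 38 tested collagen genes kept their direction and their side of the threshold. The count called higher was 20 to 22 and the count called lower 13 or 14, and the counts over 2-fold were 7 to 10 and 7 or 8. Besides Col11a1 and Col17a1, whose lost calls are given with their values, the sign changed for Col24a1, Col4a4 and Col4a6, which were called under no setting. With library size only, Col4a4 stood at 0.13 and Col4a6 at 0.028. Leaving out a library in turn gave -0.43 to 0.024 for Col24a1, -0.36 to 0.56 for Col4a4 and -0.61 to 0.30 for Col4a6. With the replicate number as a block Col4a4 stood at 0.064, and 21 collagen genes were called higher and 14 lower, as without the block. Libraries of the same number did not deviate together (correlations -0.0258 to -0.00376), so the numbers were not taken as pairs. Genes with fewer than about 20 counts per library, such as Col4a4, Col4a6 and Col17a1, are limited by depth.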
